A study of Macaca fascicularis with 64 samples.

Results

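The genes described here encode 10 antioxidant enzymes of pancreatic islet cells: the glutathione peroxidases GPX1, GPX2, GPX3 and GPX4, the superoxide dismutases SOD1 and SOD2, catalase (CAT), the peroxiredoxin PRDX1, the glutathione transferase GSTO2 and the quinone reductase NQO1. They were taken by name and are 10 of the 21041 macaque genes that were counted. All 10 were found in the count tables. GPX2 heads the list because its differences between ages and cell types were already known from these data, so its age and type values are given as a description without a test, and it is left out of every count of enzymes called. The other 9 were tested in fits across all genes. They too were listed with earlier results of these data known, so their p-values and counts called are not independent of that choice.

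The cells came from pancreatic islets of 16 cynomolgus monkeys in 4 groups of 4 animals, namely young females, young males, old females and old males. No genotype or treatment set the groups apart, and the comparison of interest was old against young. The islets were collected from the tail side of the pancreas, 1 monkey per day, so that day and monkey cannot be told apart. Live cells were picked by mouth pipette and sequenced in 4 libraries per monkey, with a barcode for each cell and a random tag for each RNA molecule (a unique molecular identifier, UMI).

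Superoxide dismutases turn superoxide into hydrogen peroxide, SOD1 mainly in the cytosol and SOD2 in mitochondria. Hydrogen peroxide is then removed by catalase, by glutathione peroxidases, which use glutathione, and by peroxiredoxins, which use thioredoxin. GPX2, NQO1 and PRDX1 are known targets of NRF2 (gene NFE2L2), the transcription factor that responds to oxidative stress, and β-cells are known for low catalase and glutathione peroxidase activity compared with many other tissues.

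Of 6141 barcodes, 5908 were retained because they held more than 800 genes and more than 10000 UMIs. They were typed by their highest hormone, which gave 4503 α-cells (GCG, glucagon), 1219 β-cells (INS, insulin), 112 δ-cells (SST, somatostatin) and 74 PP-cells (PPY, pancreatic polypeptide). Because cells were selected on these measured values, the hormones themselves are no result. The retained cell with the fewest UMIs had 10016, and the left-out cell nearest to that limit had 9973. The filter on UMIs and these counts include spike-in RNAs, which levels, tests and depths leave out. The highest hormone was under 1.5 times the next in 107 retained cells. Retained cells held between 20719761 and 34053080 UMIs per young monkey and between 22432793 and 33646154 per old monkey. A sum of UMIs over the cells of a type was used for each monkey with at least 5 such cells, so that α- and β-cells were compared over all 16 monkeys, δ-cells over 11 (7 young, 4 old) and PP-cells over 6 (2 young, 4 old). Levels are given in CPM (counts scaled to 1000000 UMIs) of these sums, and a level of one gene is not compared with that of another because gene lengths were not used.

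Beyond the hormone, β- and δ-cells were set apart by their markers, α- and PP-cells less so. The 6 other β-cell markers summed to a median of 3785 CPM in β-cells and 101.5 CPM in α-cells, and the 4 other δ-cell markers to 7525 CPM in δ-cells and 59.2 CPM in α-cells. The 3 other PP-cell markers summed to 233.5 CPM in PP-cells and 156.9 CPM in δ-cells, with ranges that overlapped. The 6 other α-cell markers summed to 74570 CPM in α-cells but also to 35010 CPM in β-cells and 50430 CPM in PP-cells, and the ranges overlapped (53250 CPM at the lowest in α-cells, 54460 CPM at the highest in β-cells). In β-cells they had a median of 46.1% of their level in the α-cells of the same monkey. Hormone RNA of other types was present in every type. GCG in β-cells had a median of 28.2% of its level in the α-cells of the same monkey, and INS in α-cells 9.75% of its level in β-cells. In 31.5% of β-cells, but 93.4% of α-cells, the highest hormone had at least 4 times the UMIs of the next.

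GPX2, a glutathione peroxidase best known from the gut lining, was highest in β-cells. In the β-cells of 16 monkeys its level had a lowest value of 46.5 CPM, a median of 99.4 CPM and a highest value of 327 CPM. In α-cells the lowest was 6.31 CPM, the median 24.3 CPM and the highest 73.5 CPM. β-cells were above α-cells in 16 of 16 monkeys, although the ranges over monkeys overlapped.

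In δ-cells GPX2 ranged from 0 to 108.9 CPM with a median of 9.71 CPM, and in PP-cells from 5.61 to 60.3 CPM with a median of 9.31 CPM. β-cells were above δ-cells in 10 of 11 monkeys and above PP-cells in 6 of 6. The fitted difference of β-cells over α-cells was 2.24 ± 0.30 (log2, SE), of δ-cells over β-cells -2.65 ± 0.41 and of PP-cells over β-cells -3.16 ± 0.52. α-, δ- and PP-cells stood close together, with δ-cells over α-cells at -0.41 ± 0.40 and PP-cells over α-cells at -0.92 ± 0.50. By median level β-cells came first, and the ranges over monkeys of the types overlapped. This order is a description and not a test.

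The level of GPX2 in α-cells was a median of 22.1% of that in the β-cells of the same monkey, with a range from 8.68% to 45.4%. For INS this share was 9.75%, and for the 6 other β-cell markers 2.74%. In cells whose highest hormone had at least 4 times the UMIs of the next, the fitted difference of GPX2 between β- and α-cells was 2.18, against 2.24 in all cells.

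GPX2 was also higher in old than in young monkeys in both main cell types. In β-cells the 8 young monkeys had a lowest value of 46.5 CPM, a median of 85.2 CPM and a highest of 108.7 CPM, and the 8 old monkeys 70.6, 196.7 and 327 CPM. Old monkeys were above every young monkey in 6 of 8 cases, and the groups overlapped through old female 1 and old female 3. The means were 80.6 ± 23.5 CPM in young and 188 ± 80.9 CPM in old monkeys (SD, n = 8 each), a fitted difference of 1.22 ± 0.26 (log2, SE).

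In α-cells the 8 young monkeys had a lowest GPX2 level of 6.31 CPM, a median of 17.8 CPM and a highest of 30.1 CPM, and the 8 old monkeys 19.6, 33.4 and 73.5 CPM. Again 6 of 8 old monkeys were above every young one. The means were 18.0 ± 7.74 CPM and 38.1 ± 18.0 CPM (SD, n = 8 each), a fitted difference of 1.11 ± 0.30. The share of the β-cell level found in α-cells had a median of 21.6% in young and 22.4% in old monkeys. For INS this share was 8.15% in young and 11.8% in old monkeys, and for the 6 other β-cell markers 3.05% and 2.44%. The part of β-cell RNA in the GPX2 difference of α-cells was not tested.

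Leaving out 1 monkey at a time kept the difference in β-cells between 1.10 (without old male 4, the highest) and 1.34, and that in α-cells between 0.89 (without old female 4, the highest) and 1.24. In cells with one clearly highest hormone the difference was 1.41 in β-cells and 1.19 in α-cells. As a mean over cells of log2(CPM/10 + 1), a scale on which scarce RNAs give smaller differences, it was 1.56 in β-cells and 0.60 in α-cells.

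**Figure D1:**
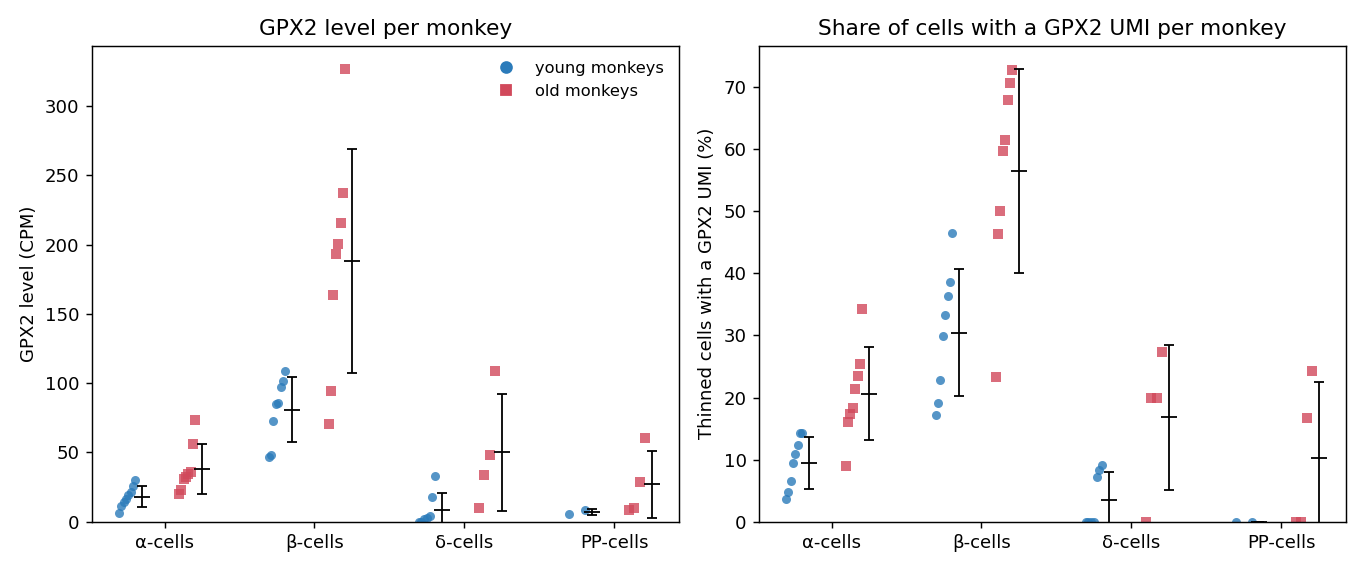
GPX2 in each monkey by cell type and age (blue circles, young; red squares, old), as level in CPM (left) and as the percentage of cells with at least 1 GPX2 UMI after each cell was thinned to 10000 UMIs (right); black bars are mean ± SD over monkeys, cut off at 0. In β-cells 6 of 8 old monkeys lie above the highest young monkey at 108.7 CPM, and in α-cells 6 of 8 lie above 30.1 CPM.

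In δ-cells the 4 old monkeys had GPX2 levels of 108.9, 48.1, 33.3 and 9.71 CPM, and the 7 young monkeys a lowest value of 0, a median of 2.60 CPM and a highest of 32.6 CPM. In PP-cells the 4 old monkeys had 60.3, 28.8, 10.2 and 8.34 CPM and the 2 young monkeys 8.44 and 5.61 CPM. These 2 young monkeys were males (young male 1 and young male 4), whereas the old monkeys were of both sexes, so age and sex are partly mixed in PP-cells. Most old values were above most young ones in both types, with overlap in each. These values rest on 157 GPX2 UMIs in δ-cells and 72 in PP-cells.

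The share of cells with a GPX2 UMI moved in the same way as the level. In β-cells it was 45.0% ± 15.1 in young and 79.7% ± 13.9 in old monkeys (mean ± SD over 8 monkeys each). Depth differed between these cells, with a median of 64782.5 UMIs per young and 81435 per old β-cell. After each cell was thinned to 10000 UMIs, which left out 45 shallower cells, the shares were 30.5% ± 10.2 and 56.5% ± 16.4, and the fitted age difference of the level was 1.28. In α-cells, with median depths of 65163 and 64319.5 UMIs, the thinned shares were 9.50% ± 4.17 and 20.6% ± 7.47.

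Within a type GPX2 was spread unevenly over cells. In α-cells 77.0% of the summed CPM of GPX2 came from the 10% of cells with the highest values, and in β-cells 44.8%. The largest number of GPX2 UMIs in a single cell was 125 in α-cells and 171 in β-cells. Single libraries of the same monkey differed in GPX2 by an SD of 0.66 (log2) in β-cells and 0.88 in α-cells. Between monkeys of the same age the SD was 0.64 and 0.77. The latter is an SD of means over libraries, so the SDs within and between monkeys are not on the same footing.

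Among marker lists of non-endocrine cells, the summed duct markers were higher in old monkeys, at a median of 1623 CPM in old and 182 CPM in young β-cells. Nearly all of this was SPP1 (osteopontin), which ranged from 342 to 5161 CPM in old and from 23.0 to 1369 CPM in young β-cells. The other 5 duct markers summed to a median of 24.2 CPM in old and 25.8 CPM in young β-cells, and CFTR and SOX9 were at 0 in the β-cells of all monkeys. In α-cells those 5 summed to 58.5 CPM in old and 26.2 CPM in young monkeys, with SPP1 at 76.1 and 22.1 CPM. Without the 76 cells carrying non-endocrine markers the GPX2 difference was 1.23 in β-cells and 1.12 in α-cells. The part of SPP1 in it was not tested.

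Between β- and α-cells, 3 of the other 9 enzymes were called by edgeR's quasi-likelihood test with Benjamini-Hochberg adjustment over 12899 genes (threshold 0.05), against a background of 25.0% of all genes. NQO1 and PRDX1 were higher in β-cells and GPX3 was lower. The median difference of all genes was -0.11 (log2), so each value below stands against that shift.

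GPX3, a glutathione peroxidase that is secreted, had a lowest level of 6.91 CPM, a median of 18.0 CPM and a highest of 37.0 CPM in the α-cells of 16 monkeys. In β-cells the values were 0.50, 3.96 and 22.9 CPM. β-cells were below α-cells in all monkeys but 1, and the ranges overlapped. The fitted difference of β-cells over α-cells was -2.16 ± 0.42 (log2, SE; adjusted p = 6.03e-05), and over 25 alternatives it stayed between -2.32 and -1.59. The level in β-cells was a median of 21.0% of that in α-cells, beside 28.2% for GCG and 46.1% for the 6 other α-cell markers. In cells with one clearly highest hormone the difference was -2.23 (adjusted p = 0.00527).

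NQO1, which reduces quinones and is a classic NRF2 target, was scarce everywhere. Its level was 0.11, 1.28 and 4.83 CPM (lowest, median, highest) in α-cells and 0, 4.98 and 28.0 CPM in β-cells. β-cells were above α-cells in 13 of 16 monkeys, with overlapping ranges and 2 monkeys without an NQO1 UMI in β-cells. The difference was 2.14 ± 0.56 (adjusted p = 0.00244). In cells with one clearly highest hormone it was 1.00 and no longer called (adjusted p = 0.428).

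PRDX1, an abundant cytosolic peroxiredoxin, had levels of 38.6, 47.2 and 86.7 CPM (lowest, median, highest) in α-cells and 38.0, 103.5 and 186 CPM in β-cells. β-cells were higher in 14 of 16 monkeys. The difference was 0.99 ± 0.28 (adjusted p = 0.00516), and it remained called in each of 25 alternatives, between 0.85 and 1.10.

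GSTO2, an omega-class glutathione transferase, leaned the other way, with levels of 19.8, 32.0 and 59.2 CPM in α-cells and 5.79, 17.9 and 42.1 CPM in β-cells. It was lower in β-cells in 15 of 16 monkeys by -0.98 ± 0.40, which did not pass (adjusted p = 0.0626). It passed in 6 of 25 alternatives, with adjusted p between 0.00202 and 0.117 over all of them. DESeq2 gave 0.0197, thinned cells 0.00202, and leaving out young female 3, the highest in β-cells, 0.0363.

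The other 5 enzymes were not called between β- and α-cells. GPX1, the cytosolic glutathione peroxidase found in most tissues, differed by 0.42 ± 0.21 (adjusted p = 0.152), and was higher in β-cells in 12 of 16 monkeys. GPX4, which protects membranes from lipid peroxides, differed by -0.23 ± 0.15 (adjusted p = 0.272), and by -0.55 in cells with one clearly highest hormone, where it was called (adjusted p = 0.00585). SOD1 differed by 0.16 ± 0.15 and SOD2 by -0.21 ± 0.27, with 95% intervals from -0.13 to 0.45 and from -0.75 to 0.32.

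CAT had medians of 5.73 CPM in α-cells and 2.69 CPM in β-cells, on 2276 and 682 UMIs, and differed by -0.98 ± 0.57 (adjusted p = 0.222). Over 25 alternatives the difference ran from -1.34, in cells with one clearly highest hormone, to -0.18, in thinned cells. Only 11.1% of α-cells and 13.3% of β-cells held a CAT UMI.

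**Figure D2:**
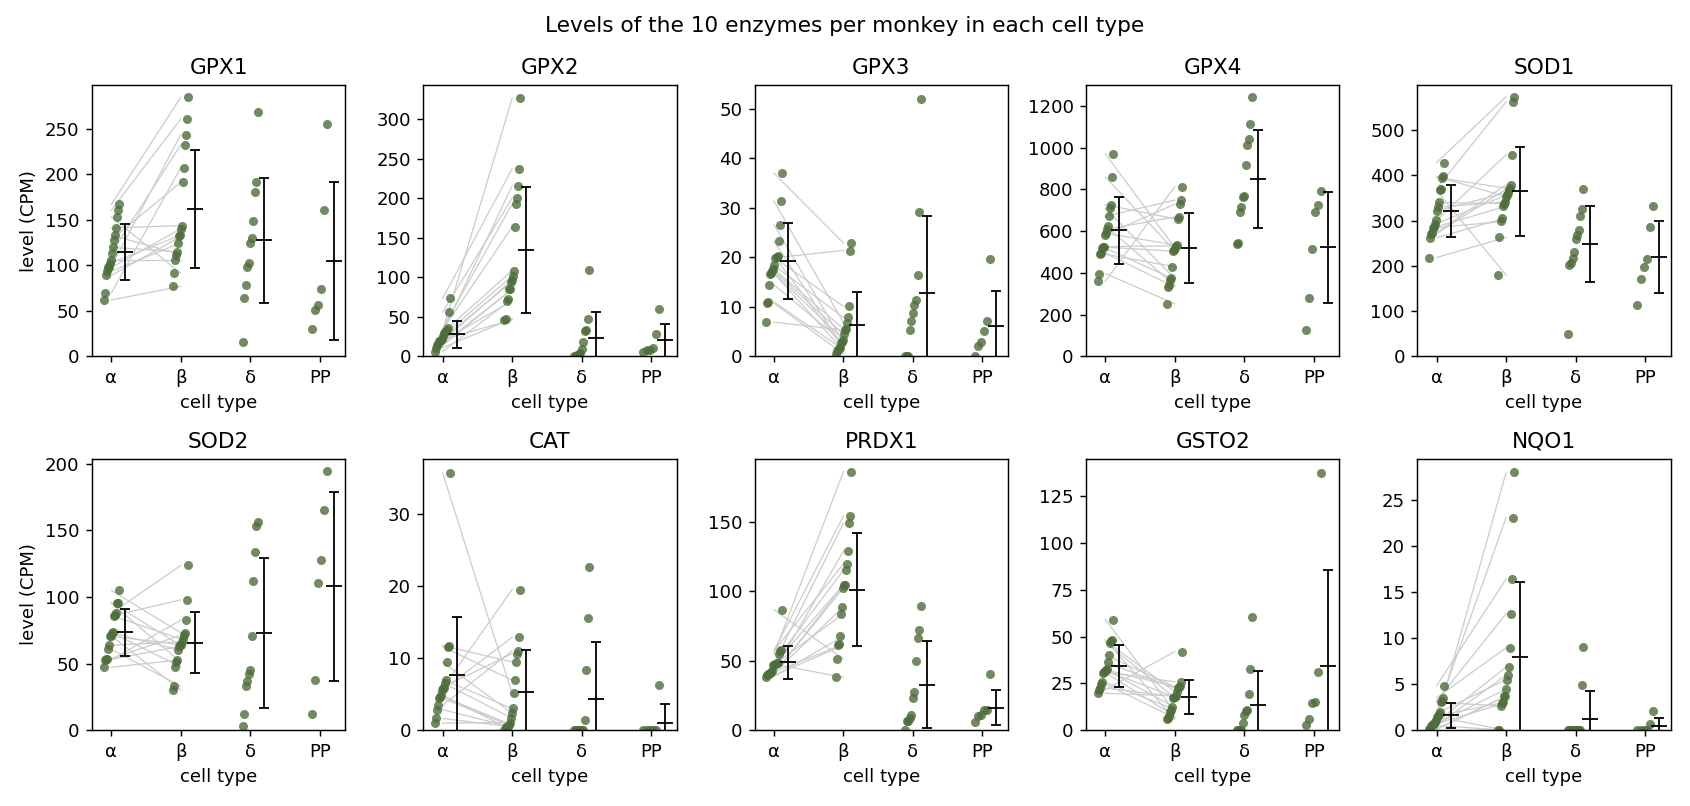
Level in CPM of each of the 10 enzymes (one panel each, with its own axis) in α-, β-, δ- and PP-cells; points are monkeys, grey lines join α- and β-cells of the same monkey, and black bars are mean ± SD, cut off at 0. The lines of GPX2 rise in 16 of 16 monkeys, those of PRDX1 in 14 and those of NQO1 in 13, whereas those of GPX3 fall in 15.

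GPX4 was higher in δ-cells than in the other types. In 11 monkeys its level was 540 CPM at the lowest, 768 CPM at the median and 1245 CPM at the highest in δ-cells, and over 16 monkeys 361, 587 and 971 CPM in α-cells. δ-cells were higher than α-cells in 10 of 11 monkeys, by 0.49 ± 0.17 (adjusted p = 0.0270), than β-cells in 9 of 11, by 0.72 ± 0.17 (adjusted p = 0.00119), and than PP-cells in 4 of 5, where PP-cells differed by -0.70 ± 0.23 (adjusted p = 0.0449). Non-endocrine markers were carried by 10.7% of δ-cells, against 1.22% of α- and 0.656% of β-cells, and the median depth of δ-cells was 43776 UMIs, against 64894 and 74425. In alternatives chosen after seeing the data, GPX4 differed between δ- and α-cells by 0.54 without the marked cells (adjusted p = 0.0163), but by 0.30 in thinned cells, where it was not called (adjusted p = 0.212). Between δ- and β-cells it differed by 0.77 and 0.59 and remained called in both (adjusted p = 0.000589 and 0.00924).

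Relative to α-cells, δ-cells had lower GSTO2 (-1.54 ± 0.52, adjusted p = 0.0260) and lower SOD1 (-0.47 ± 0.18, adjusted p = 0.0479). So 3 of 9 enzymes were called between δ- and α-cells, at a background of 23.2%. The median difference of all genes there was -0.47, the same size as that of SOD1. Without the marked cells SOD1 differed by -0.45 and was not called (adjusted p = 0.0662), whereas in thinned cells it differed by -0.81 (adjusted p = 0.00119). GSTO2 was called in both, at -1.47 and -2.68. PRDX1 was called in thinned cells, at -1.01 (adjusted p = 0.0389).

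Relative to β-cells, δ-cells had lower PRDX1 (-1.69 ± 0.37, adjusted p = 0.000622), SOD1 (-0.63 ± 0.18, adjusted p = 0.00872) and NQO1 (-2.46 ± 0.87, adjusted p = 0.0372). With GPX4 this made 4 of 9 called, at a background of 19.8% and a median of -0.35 over all genes. Only 8 NQO1 UMIs were counted in δ-cells, in 2 of 11 monkeys, and after thinning NQO1 did not pass the filter on low counts. PRDX1 and SOD1 were called in both alternatives, and GPX3 in thinned cells (1.91, adjusted p = 0.0236).

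PP-cells had the lowest median of PRDX1, with 6.03, 12.8 and 40.7 CPM (lowest, median, highest of 6 monkeys), on 46 UMIs. It differed from α-cells by -1.77 ± 0.50 (adjusted p = 0.0230) and from β-cells by -2.76 ± 0.51 (adjusted p = 8.33e-05), and was lower in 6 of 6 monkeys each. From δ-cells it differed by -1.07 ± 0.53, which was not called (adjusted p = 0.191), and δ-cells were higher in 3 of 5 monkeys. SOD1 was lower in PP- than in β-cells in 6 of 6 monkeys (-0.77 ± 0.23, adjusted p = 0.0158), but was not called in thinned cells (-0.66, adjusted p = 0.0598).

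NQO1 was called between PP- and β-cells (-3.58 ± 1.27, adjusted p = 0.0431), on 2 UMIs in PP-cells. Its pooled level there was 7.39% of that in β-cells, with an exact Poisson interval from 0.895% to 26.7% that covers counting error only. The counts called were 1 of 9 between PP- and α-cells, 3 of 9 between PP- and β-cells and 1 of 9 between PP- and δ-cells, where 6.61%, 17.2% and 10.3% of all genes were called. In that order, the median differences of all genes (log2, PP-cells over the other type) were -0.37, -0.26 and 0.09. GPX1 and SOD2 were called in no pair of types, nor was CAT.

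None of the 9 enzymes was called between old and young monkeys in any cell type by edgeR. In β-cells 5 of 11101 genes (0.0450%) passed, and 613 had an unadjusted p under 0.05. Of the enzymes, 3 of 9 had an unadjusted p under 0.05 there, and DESeq2 called 0. The 5 genes called, named here after their values were seen, were CHGB, IGFBP4, KIF26A, SERPINA1 and ENSMFAG00000003105. In α-cells 0% of 13486 genes passed, 920 had an unadjusted p under 0.05, and DESeq2 called 26. Of the enzymes, 1 of 9 had an unadjusted p under 0.05, and DESeq2 called the same 1, GSTO2.

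GSTO2 in α-cells had levels of 19.8, 25.2 and 32.5 CPM (lowest, median, highest) in young and 31.0, 43.6 and 59.2 CPM in old monkeys. Old monkeys were above every young monkey in 6 of 8 cases, and all 8 were above the young median. The means were 26.2 ± 4.95 and 42.8 ± 9.56 CPM (SD, n = 8 each), a difference of 0.71 ± 0.15 on the log2 scale that did not pass in edgeR (adjusted p = 0.401). DESeq2 gave 0.71 with an adjusted p = 0.0208. Over 28 alternatives the adjusted p ranged from 0.0208 to 0.999. In β-cells the difference was 0.16 ± 0.38 (adjusted p = 1.00).

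PRDX1 in β-cells had levels of 38.0, 75.8 and 119.7 CPM in young and 61.9, 116.8 and 186 CPM in old monkeys. Of 8 old monkeys, 7 were above the young median and 4 above every young monkey. The difference was 0.72 ± 0.24 (adjusted p = 0.734). In α-cells it was -0.12 ± 0.16 (adjusted p = 0.914).

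GPX3 in β-cells had levels of 0.50, 2.23 and 7.87 CPM in young and 1.74, 5.48 and 22.9 CPM in old monkeys, with the values of old male 1 and old male 3 (22.9 and 21.4 CPM) far above the rest. The difference was 1.52 ± 0.60 (adjusted p = 0.822), and in α-cells -0.0010 ± 0.26. Over 27 alternatives the β-cell difference ran from 0.30, as a mean over cells of log2(CPM/10 + 1), to 3.21, in cells with one clearly highest hormone, and it was called in none. The share of its α-cell level found in β-cells was a median of 11.5% in young and 41.3% in old monkeys, whereas that of GCG was 31.8% and 24.9%.

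GPX4 in β-cells was on the lower side in old monkeys, with levels of 367, 664 and 814 CPM in young and 252, 506 and 534 CPM in old monkeys. None of the 8 old monkeys was above the young median. The difference was -0.42 ± 0.20 (adjusted p = 0.902), and 0.07 ± 0.17 in α-cells.

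**Figure D3:**
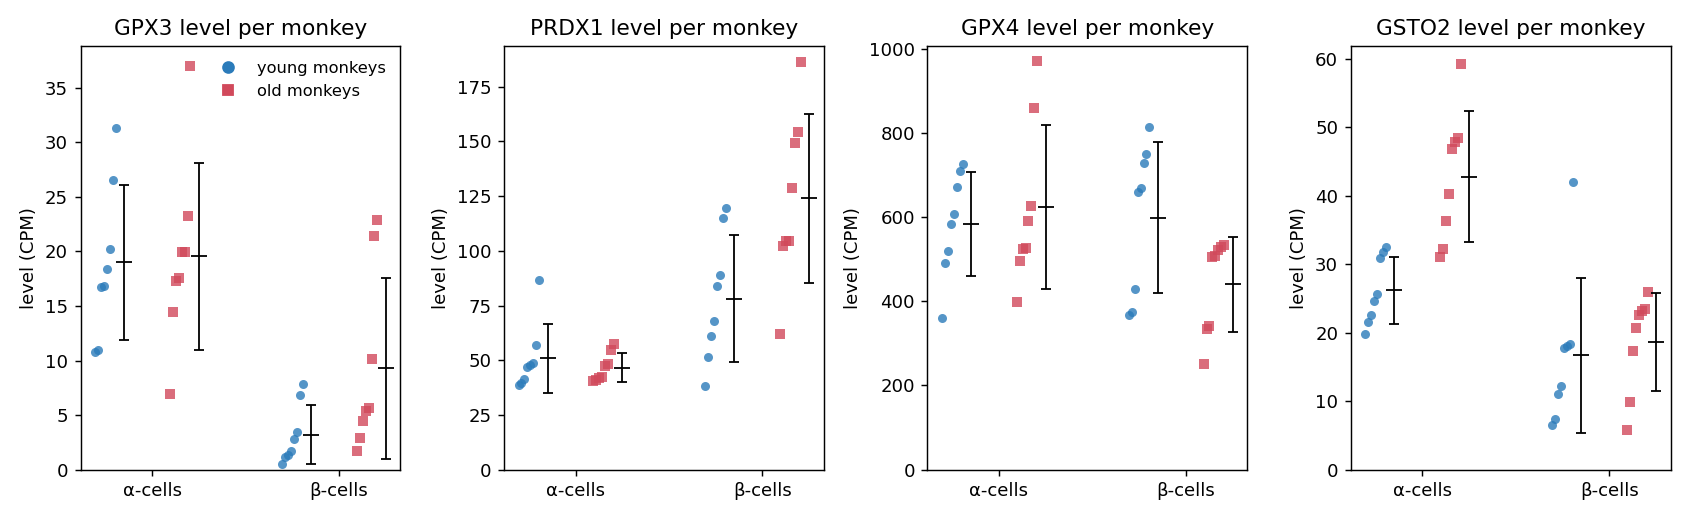
Levels in CPM of GPX3, PRDX1, GPX4 and GSTO2 in α- and β-cells of young (blue circles) and old (red squares) monkeys; black bars are mean ± SD over 8 monkeys. In α-cells 6 of 8 old monkeys lie above the highest young monkey for GSTO2, at 32.5 CPM, and in β-cells 4 of 8 do so for PRDX1, at 119.7 CPM.

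The remaining enzymes showed small or imprecise age differences. In β-cells GPX1 differed by 0.10 ± 0.25, SOD1 by -0.21 ± 0.19, SOD2 by -0.09 ± 0.24, CAT by 0.35 ± 0.86 and NQO1 by 0.02 ± 0.72. In α-cells GPX1 differed by 0.12 ± 0.19, SOD1 by -0.15 ± 0.13, SOD2 by 0.05 ± 0.17, CAT by -0.15 ± 0.59 and NQO1 by -0.28 ± 0.73. For SOD1 in α-cells the 95% interval ran from -0.41 to 0.11, whereas for CAT in β-cells it ran from -1.34 to 2.04, so that changes of the size seen for GPX2 were inside the interval of CAT but not of SOD1. Over the 9 enzymes the median difference was 0.10 in β-cells and -0.0010 in α-cells, against 0.01 and -0.0006 over all genes.

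CAT in α-cells depended on 1 animal. Young male 3 had 35.7 CPM and the next young monkey 11.6 CPM, and without it the difference was 0.52 in place of -0.15. The same animal had the highest PRDX1 level in α-cells (86.7 CPM) and, among α-cells of young monkeys, the highest sum of immune markers (1803 CPM, against a median of 39.2 CPM). The part of those markers was not tested.

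**Figure D4:**
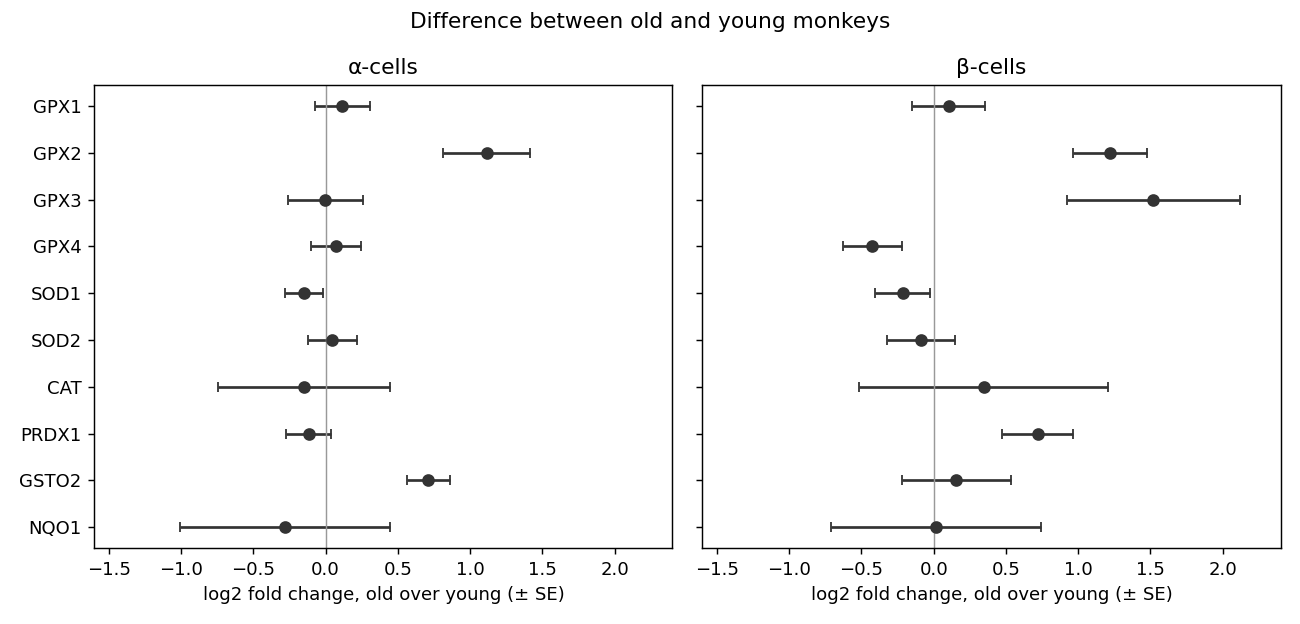
Log2 fold change of old over young monkeys for the 10 enzymes in α-cells (left) and β-cells (right), as points with the standard error of the edgeR fit as bars. GPX2 lies at 1.11 in α-cells and 1.22 in β-cells, and the widest bars belong to CAT, NQO1 and, in β-cells, GPX3.

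In δ-cells 7 of the 10 enzymes passed the filter on low counts (not CAT, GPX3 and NQO1), and in PP-cells 6 (not PRDX1 either). None of the 6 tested in δ-cells or the 5 in PP-cells, GPX2 aside, had an adjusted p under 0.05 in edgeR or DESeq2 or an unadjusted p under 0.05 in edgeR, and 0% of 7405 and of 6568 genes passed. GSTO2 had the largest difference in both, 2.53 ± 1.43 in δ-cells and 3.09 ± 1.75 in PP-cells (adjusted p = 1.00 and 0.847). In δ-cells its levels in 3 of 4 old monkeys were above all 7 young ones. In PP-cells the young monkeys compared were males only, so age and sex are partly mixed there.

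The age differences of β-cells and α-cells were compared with each other in 1 fit with the monkey as a block. The age difference was larger in β- than in α-cells by 0.78 ± 0.26 (log2) for PRDX1 (adjusted p = 0.625) and by 1.496 ± 0.53 for GPX3 (adjusted p = 0.635). It differed by -0.49 ± 0.21 for GPX4 (adjusted p = 0.758). For GSTO2 it differed by -0.37 ± 0.45 (adjusted p = 0.966). None of the 9 enzymes passed in edgeR, and 3 had an unadjusted p under 0.05. Over all genes 0% of 12137 passed, and 763 had an unadjusted p under 0.05. For GPX2 the age differences of both types were nearly equal, with a difference of 0.06 ± 0.28.

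The list did not draw on sex, so the age difference of males was set against that of females for all 10. GPX2 in β-cells averaged 76.2 ± 33.7 CPM in young and 155 ± 84.2 CPM in old females, and 85.0 ± 9.96 CPM in young and 221 ± 72.3 CPM in old males (SD, n = 4 each). All 4 old males, but only 2 of 4 old females, were above all young monkeys of both sexes. The difference between the sexes was 0.34 ± 0.51 (adjusted p = 1.00). In α-cells GPX2 averaged 22.1 and 36.6 CPM in young and old females and 14.0 and 39.6 CPM in young and old males, with a difference between the sexes of 0.75 ± 0.58 (adjusted p = 0.919).

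None of the 10 enzymes passed in that comparison in either type, and none had an unadjusted p under 0.05 in edgeR. The enzyme nearest to it was CAT in α-cells, at -2.17 ± 1.03 (adjusted p = 0.877). Among all genes 0.00707% (CACNA1F, 1 of 14146) passed in α-cells and 0% of 11693 in β-cells.

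The share of cells with a UMI separated the enzymes that were counted in most cells from those counted in few. After thinning to 10000 UMIs, GPX4 was counted in 87.8% ± 13.1 of α-cells and 86.5% ± 13.6 of β-cells (mean ± SD over 16 monkeys), and SOD1 in 77.3% ± 11.7 and 84.5% ± 10.6. PRDX1 was counted in 23.6% ± 3.29 of α- and 39.7% ± 14.2 of β-cells, and GPX3 in 13.6% ± 4.77 and 4.97% ± 6.39. NQO1 was counted in 1.24% ± 1.21 of α- and 4.13% ± 5.15 of β-cells, and CAT in 3.73% ± 3.36 and 3.97% ± 3.98. Unthinned, with median depths of 64894 UMIs per α-cell and 74425 per β-cell, PRDX1 was counted in 52.5% and 70.6%, and GPX3 in 45.8% and 22.8%. The order of α- and β-cells in these shares was that of the levels for PRDX1, GPX3 and NQO1. No cell type known to lack these enzymes was measured, so no background share is given.

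Other antioxidant genes were taken from a list of 99 genes for glutathione synthesis, glutathione transferases, thioredoxins and peroxiredoxins, NRF2 targets and regulators, and selenoproteins, of which 82 were in the files. Between β- and α-cells 76 were tested and 15 passed, 8 higher and 7 lower in β-cells, with a median of -0.01 against -0.11 over all genes. The share that passed was below the background of 25.0%.

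Among genes with a mean of at least 5 CPM, those higher in β-cells by the most were ME1, the cytosolic malic enzyme that yields NADPH, at 89.4 against 27.6 CPM (1.62 ± 0.31, adjusted p = 4.02e-05), and GSR, glutathione reductase, at 28.7 against 11.7 CPM (1.28 ± 0.35, adjusted p = 0.00419). NFE2L2, which encodes NRF2, was at 115 against 56.0 CPM (1.03 ± 0.26, adjusted p = 0.00168), and PRDX3, the mitochondrial peroxiredoxin, at 161 against 98.6 CPM (0.67 ± 0.17, adjusted p = 0.00203).

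Lower in β-cells were the glutathione transferase GSTM3, at 20.6 against 60.7 CPM (-1.74 ± 0.29, adjusted p = 3.54e-06), OPLAH, an enzyme of glutathione breakdown, at 3.89 against 10.9 CPM (-1.66 ± 0.51, adjusted p = 0.0110), the conjugate exporter ABCC3, at 3.65 against 10.1 CPM (-1.52 ± 0.47, adjusted p = 0.0113), and the epoxide hydrolase EPHX1, at 69.6 against 183.8 CPM (-1.43 ± 0.23, adjusted p = 1.34e-06).

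By group, 2 genes of glutathione synthesis and recycling were higher in β-cells and 1 lower out of 15 tested, 1 thioredoxin or peroxiredoxin was higher and 1 lower out of 12, and 3 NRF2 targets and regulators were higher and 4 lower out of 24. Of 13 selenoprotein genes and methionine sulfoxide reductases 2 were higher and none lower, and of 11 other peroxidases and transferases 1 was lower. Over all 12899 genes, 1117 were called higher and 2105 lower in β-cells. The groups are small and were not tested against those shares.

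**Figure D5:**
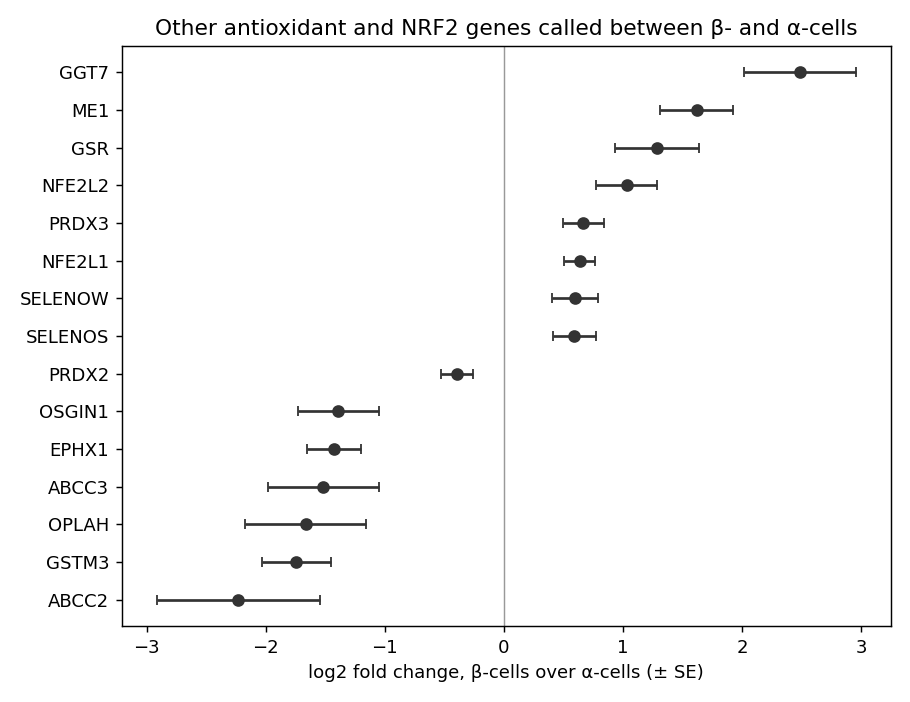
Log2 fold change of β-cells over α-cells (points, with SE as bars) for the 15 genes of the wider antioxidant list with an adjusted p under 0.05. Of these, 8 lie above 0 and 7 below.

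With age none of the wider list passed in edgeR, out of 77 genes tested in α-cells and 72 in β-cells. In α-cells 6 of 77 had an unadjusted p under 0.05, and in β-cells 1 of 72, where 920 of 13486 and 613 of 11101 of all genes did. The median difference was -0.05 in α-cells and -0.0020 in β-cells, against -0.0006 and 0.01 over all genes. The list was not fitted apart from all genes, and DESeq2 was counted for the 10 enzymes and for all genes alone.

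The genes whose levels over the 16 monkeys were most like those of GPX2, among 7397 genes with at least 10 CPM on average in both types, were SMAD9, GMDS, SLC25A39, ENSMFAG00000030598 and TMED8. Likeness was Pearson's r of log2 levels, averaged over α- and β-cells. For SMAD9 r was 0.64 in α-cells and 0.68 in β-cells, for GMDS 0.73 and 0.50, for SLC25A39 0.72 and 0.45, for ENSMFAG00000030598 0.64 and 0.53, and for TMED8 0.60 and 0.54. Both types came from the same monkeys and libraries, and the age groups themselves enter these values. GPX3, CAT and NQO1 were under that level and were not compared. Of the other 6 enzymes GSTO2 had the highest average, with r of 0.39 in α-cells and 0.13 in β-cells and rank 745 of 7397. GPX4 had the higher r in α-cells, 0.50, but -0.24 in β-cells. SOD1 had r of -0.19 and -0.32.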

How the data were processed

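Single islet cells of 16 monkeys were sequenced in 64 libraries with a modified STRT protocol. Per the labels, the authors' processing used CASAVA 1.8 and TopHat2 2.0.12. By the study's methods, trimmed reads were aligned to Macaca_fascicularis_5.0, and those with a single alignment were assigned to genes with htseq-count, each UMI once. The authors deposited whole-number UMI counts per gene and cell, without normalization. A gene with near-identical copies can lose reads in such counting, which was not tested for the enzymes. No sequence or coordinate was used here.

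Kept cells had more than 800 genes and more than 10000 UMIs (spike-ins included), and the study's filter on mapping rate was not used. Of 233 cells left out, 136 failed on UMIs alone. Doublets were not called, and cells above the 95th percentile of UMIs were left out as an alternative. No 2 cells had identical counts. The same 384 barcode numbers recur in the libraries, and cells were told apart by library. CPM and tests used the 21041 macaque genes without the 95 spike-ins.

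Counts were summed per monkey and type (at least 5 cells) and tested in R 4.3.3 with edgeR 4.0.16 (TMM, filterByExpr, quasi-likelihood test, Benjamini-Hochberg over all genes tested, threshold 0.05), with sex and age in the model for age and with the monkey as a block for the pairs of types. DESeq2 1.42.0 was the other tool. The summary statistics were made in Python 3.11.15. The age fits and the fit of β- over α-cells were tried on simulated data with planted changes of a single size. That size was above the GPX2 age differences in α- and β-cells. The interactions and the other pairs of types were not simulated. SE is the log2 fold change divided by the root of F, and 95% intervals are built from it under a normal distribution. They are therefore somewhat narrower than the quasi-likelihood test implies. For GPX1 between β- and α-cells the interval ran from 0.0036 to 0.83, with an unadjusted p = 0.0534 by that test. The study treated cells as replicates, and here monkeys are the replicates. Each group holds different animals, and all cells of 1 animal share a day.

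The enzymes and gene lists were chosen with earlier results of these data known. All 10 enzymes are named. Of the wider list, the 4 largest rises and 4 largest falls among genes called, with a mean of at least 5 CPM in the cells compared, are named, and so are the 5 genes most like GPX2. The alternatives included DESeq2, fits without the low-count filter, thinning to 10000 UMIs, stricter filters (over 2000 genes and 20000 UMIs, or at least 20 cells), cells with one clearly highest hormone (at least 4 times the next), cells without non-endocrine markers (over 2000 CPM of one marker list, without SPP1 and CD74), no hormones, no covariate, a replicate block, no monkey block, an exact permutation test of mean log2(CPM/10 + 1), and leaving out each monkey. For the pairs of types other than β- and α-cells, only the thinning and the fit without non-endocrine markers were run, and both were chosen after seeing the data.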

Additional observations from a re-analysis of the deposited data

Results flagged for a closer look

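Each level below, in CPM, stood apart from the other monkeys of its age and cell type by Dixon's test at 95%. Of 70 groups tested, 9 held such a monkey. Chance gives about 1 in 20 for normally distributed values, and no excess can be read from these counts, since in 3 of the 9 every other monkey was at 0 and any UMI would have set the monkey apart.

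In β-cells, young female 3 had SOD1 at 573.6 CPM, with the nearest young monkey at 445.4 CPM, and GSTO2 at 42.08 CPM, with the nearest at 18.35 CPM. In α-cells, young male 3 had CAT at 35.67 CPM, with the nearest at 11.58 CPM, and PRDX1 at 86.74 CPM, with the nearest at 57.11 CPM. NQO1 in β-cells of old female 3 was at 27.96 CPM, with the nearest at 12.63 CPM.

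The number of β-cells behind such values ran from 11 to 194 per monkey. The remaining 4 values were in the types with the fewest cells. In δ-cells, CAT was at 22.64 CPM in old female 2, and NQO1 at 4.852 CPM in old female 2 and 9.031 CPM in young female 1, where the other monkeys of the same age were at 0 for NQO1. In PP-cells, CAT was at 6.254 CPM in old female 1 and at 0 in the other old monkeys.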

How the results depend on the processing

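Of the 9 enzymes, DESeq2 called 1 with age in α-cells (GSTO2) in place of 0. No other alternative changed a count of enzymes called with age. Among all genes, age calls in α-cells numbered 26 with DESeq2 (0 in edgeR). In β-cells (5 in edgeR) they numbered 41 with DESeq2, 21 without the low-count filter, 3 without the cells of most UMIs, 1 in cells with one clearly highest hormone, 0 by the permutation test, and 2 to 8 when 1 monkey was left out. In δ-cells (0 in edgeR) they numbered 3 with DESeq2, 3 without the filter, 5 without the cells of most UMIs, 1 with over 2000 genes and 20000 UMIs, and 0 to 1 with 1 monkey left out. In PP-cells (0 in edgeR) they numbered 1 with DESeq2, 9 without the filter, 2 without the cells of most UMIs, 1 without the covariate, and 4 to 12 with 1 monkey left out, where a lone young monkey was assumed to vary like the others. The replicate numbers follow the order of the individual codes within each group and are not a pairing given in the labels. Correlations of same-numbered monkeys ran from -0.0747 to 0.134. With a replicate block the counts were 3 in α-, 11 in β- and 1 in δ-cells, and 0 enzymes were called.

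Age differences near 0 changed sign, none of them called. For GPX3 in α-cells (-0.0010) the values were 0.0014 without the filter, 0.0682 thinned, 0.0224 without the cells of most UMIs, 0.0024 with over 2000 genes, 0.0056 without marked cells, 0.0393 without the covariate, 0.0152 with the replicate block and 0.052 on the log scale of single cells. Thinning gave -0.2475 for SOD2 in α- and -0.011 for GPX1 in β-cells. Leaving out the cells of most UMIs gave -0.0117 for SOD2 and 0.0761 for NQO1 in α-cells, and -0.009 for GSTO2 and -0.0264 for NQO1 in β-cells. The replicate block gave 0.2662 for NQO1 and 0.4088 for CAT in α-cells and -0.1273 for CAT in β-cells. The log scale of single cells gave 0.0145 for NQO1 and 0.0753 for PRDX1 in α-cells and -0.0102 for CAT in β-cells. NQO1 in β-cells was -0.0108 with over 2000 genes, -2.1015 with one clearly highest hormone, -0.012 without hormones and -0.2023 with at least 20 cells. With 1 monkey left out, α-cell values ran from -0.1468 to 0.1327 for GPX3, -0.0303 to 0.1193 for SOD2, -0.026 to 0.1455 for GPX4, -0.4092 to 0.5211 for CAT, -0.4966 to 0.1924 for NQO1 and -0.176 to 0.0346 for PRDX1. β-cell values ran from -0.3019 to 0.5411 for NQO1, -0.0139 to 0.4534 for GSTO2, -0.0275 to 0.2596 for GPX1, -0.6777 to 0.6516 for CAT and -0.2104 to 0.0343 for SOD2. The cause of these changes was not tested. Between β- and α-cells, no difference of the 10 enzymes changed sign. For the other pairs of types, 2 alternatives were added after seeing the data. Thinning moved the enzymes called between PP- and β-cells from 3 to 1 and all genes called between PP- and δ-cells from 1334 to 659. It turned GPX1 between δ- and α-cells (-0.1549), GPX4 (-0.2691) and GSTO2 (-0.226) between PP- and β-cells, and GPX1 (0.0516), GPX2 (0.2929), SOD1 (0.2335) and CAT (0.6352) between PP- and δ-cells. Leaving out marked cells turned none of the enzymes. The interactions were fitted once. PP- and δ-cells gave no value with one clearly highest hormone or at least 20 cells, nor PP-cells with the block.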
